A study of Homo sapiens with 6 samples.

Results

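The regions described here are the DHX9 peaks of human chromosomes 4, 13 and 18, taken from 2 lists of peak regions by chromosome name alone. They number 562 of 21618 peaks in the DHX9-Rb list and 161 of 6831 peaks in the DHX9-mAb list. DHX9, or RNA helicase A, was cross-linked to RNA with ultraviolet light in HEK293 cells, an established human embryonic kidney line with no other treatment named in the labels. RNA bound to it was recovered by FLASH, a cross-linking and immunoprecipitation assay, with the DHX9-Rb antibody or the DHX9-mAb antibody, each in 2 biological replicates. IgG-Rb, a control immunoglobulin pulled down from the same cells in 2 replicates, enters no comparison here. Each list stands for both replicates of its antibody and gives only the start, end and strand of each region in hg19, so neither the replicate error nor the read depth behind a peak is known.

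DHX9 unwinds double-stranded RNA and acts mostly in the nucleus. Alu elements are short repeats of primate genomes, and a pair of them in opposite orientation within a transcript can fold into a long hairpin of the kind that DHX9 binds. Alu elements are known to be common in gene-rich DNA and sparser on gene-poor chromosomes such as the 3 described here. No gene or repeat annotation of hg19 was used here, so regions are named by position, and whether a peak lies in an Alu element, an exon or an intron was not analysed here.

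These chromosomes carried the fewest peaks per Mb of the 23 chromosomes with peaks (1 to 22 and X), counted between the first and the last peak of each. With DHX9-Rb, 342 peaks fell on chromosome 4 (1.84 per Mb), 113 on chromosome 18 (1.45 per Mb) and 107 on chromosome 13 (1.14 per Mb). The DHX9-mAb list placed 105, 31 and 25 there, at densities of 0.564, 0.402 and 0.268 per Mb, so chromosome 13 was the sparsest of all in both lists. The other 20 chromosomes ranged from 2.29 per Mb on chromosome 8 to 49.4 per Mb on chromosome 19 with DHX9-Rb. Together the 3 chromosomes took 2.6% of the DHX9-Rb list and 2.36% of the DHX9-mAb list, a difference that did not pass Fisher's exact test (two-sided, odds ratio 0.904, 95% interval 0.753 to 1.08, adjusted p = 0.377). That test and 12 others below form a family of 13, adjusted together by Benjamini-Hochberg. Neighbouring peaks can come from 1 transcript, and the p-values, which treat each peak as separate, are therefore too small. The chromosomes and measures were also chosen with earlier results of these data known. The p-values therefore describe these lists and are not an independent test.

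Most of the length of these chromosomes held no peak, and a few places held a large part of them. Cut into 1 Mb blocks from the first to the last peak, chromosome 4 had DHX9-Rb peaks in 56 of 187 blocks, chromosome 13 in 29 of 95 and chromosome 18 in 21 of 78. The fullest 3 blocks held 43.6%, 40.2% and 42.5% of the DHX9-Rb peaks of chromosomes 4, 13 and 18. DHX9-mAb peaks reached 23, 13 and 14 blocks, and its fullest 3 blocks held 38.1%, 48.0% and 41.9%. The longest stretch without a DHX9-Rb peak on either strand was 20.4 Mb on chromosome 13, from 53045576 to 73432236. It was 14.3 Mb on chromosome 4, from 85529793 to 99832159, and 13.7 Mb on chromosome 18, from 60539240 to 74190686. With DHX9-mAb the longest empty stretches were 32.4, 32.1 and 22.8 Mb on chromosomes 4, 13 and 18. Blocks and empty stretches were not counted on the other chromosomes, so whether they differ there is not known.

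On chromosome 4 a pair of blocks stood out. The block from 1000001 to 2000000 held 65 DHX9-Rb peaks, of which 61 lay on the plus strand, and DHX9-mAb added 17, each of them on top of a DHX9-Rb peak. The block from 39000001 to 40000000 held 58 DHX9-Rb peaks, split between the strands. There, 28 plus-strand peaks lay between 39533794 and 39774660, and 30 minus-strand peaks followed between 39830783 and 39976244, with no overlap of the 2 ranges. DHX9-mAb marked the same block with 4 plus-strand and 10 minus-strand peaks. The minus-strand share of the block was thus 30 of 58 with DHX9-Rb and 10 of 14 with DHX9-mAb.

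On chromosome 13 the fullest block, from 45000001 to 46000000, was marked 21 times by DHX9-Rb and 2 times by DHX9-mAb. The next, from 33000001 to 34000000, held 14 and 4. On chromosome 18 the first block of the chromosome held 19 DHX9-Rb and 5 DHX9-mAb peaks, with 17 and 5 of them on the minus strand. The block from 19000001 to 20000000 held 18 DHX9-Rb peaks, 17 on the plus strand, and 1 DHX9-mAb peak. DHX9-mAb had its fullest block of chromosome 13 elsewhere, from 53000001 to 54000000 with 5 peaks, and on chromosome 18 the block from 47000001 to 48000000 equalled the first block with 5.

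Peaks that stood alone were more common here than elsewhere. A peak was called alone when no same-strand peak of its own list lay within 5 kb of its edges, and peaks joined by gaps of at most 5 kb formed a run. Alone were 150 of the 562 DHX9-Rb peaks, or 26.7% (95% Wilson interval 23.2 to 30.5), beside 12.2% of the whole list. In the rest of the genome 11.8% were alone (2492 of 21056), and the difference passed the test (Fisher's exact test, odds ratio 2.71, 95% interval 2.22 to 3.29, adjusted p = 4.36e-20). With DHX9-mAb 65 of 161 peaks were alone, or 40.4% (33.1 to 48.1), beside 24.2% of the whole list and 23.8% of the rest (Fisher's exact test, odds ratio 2.17, 95% interval 1.55 to 3.02, adjusted p = 2.55e-05). Intervals on shares and odds ratios cover counting error only. These chromosomes also had the fewest peaks per Mb, so the lone share is not a measure apart from that density. The part of density in the difference was not tested.

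All 3 chromosomes lay on the side of more lone peaks. The DHX9-Rb share was 22.5% on chromosome 4 (77 of 342), 28.3% on chromosome 18 (32 of 113) and 38.3% on chromosome 13 (41 of 107). Among the other 20 chromosomes it ran from 6.23% on chromosome 19 to 24.9% on chromosome 8, so chromosomes 13 and 18 lay above this range and chromosome 4 within it. With DHX9-mAb the shares were 37.1%, 41.9% and 52.0% on chromosomes 4, 18 and 13, and the other chromosomes ran from 12.0% to 45.7%. Chromosome 13 alone lay above that range. Few peaks had a gap near the 5 kb limit. With DHX9-Rb 5 peaks had a gap of 4 to 5 kb and 2 of 5 to 6 kb, and with DHX9-mAb 2 and 2. The closest gaps on either side were 4961 and 5006 nt for DHX9-Rb, and 4783 and 5086 nt for DHX9-mAb.

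The gap to the nearest same-strand peak was larger here at each quartile in both lists, with no test. For DHX9-Rb its lower quartile was 95 nt here and 66 nt in the rest, its median 466 and 227 nt, and its upper quartile 7231 and 792 nt. For DHX9-mAb the lower quartile was 344 nt here and 129 nt in the rest, the median 1230 and 426 nt, and the upper quartile 64784 and 3886 nt. A gap over 100 kb was found for 84 DHX9-Rb peaks (14.9%), against 4.03% in the rest. On chromosome 13 that share was 27.1%. Gaps below 1 kb were still the most common kind, with 62.1% of the DHX9-Rb peaks here and 78.1% in the rest.

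**Figure D1:**
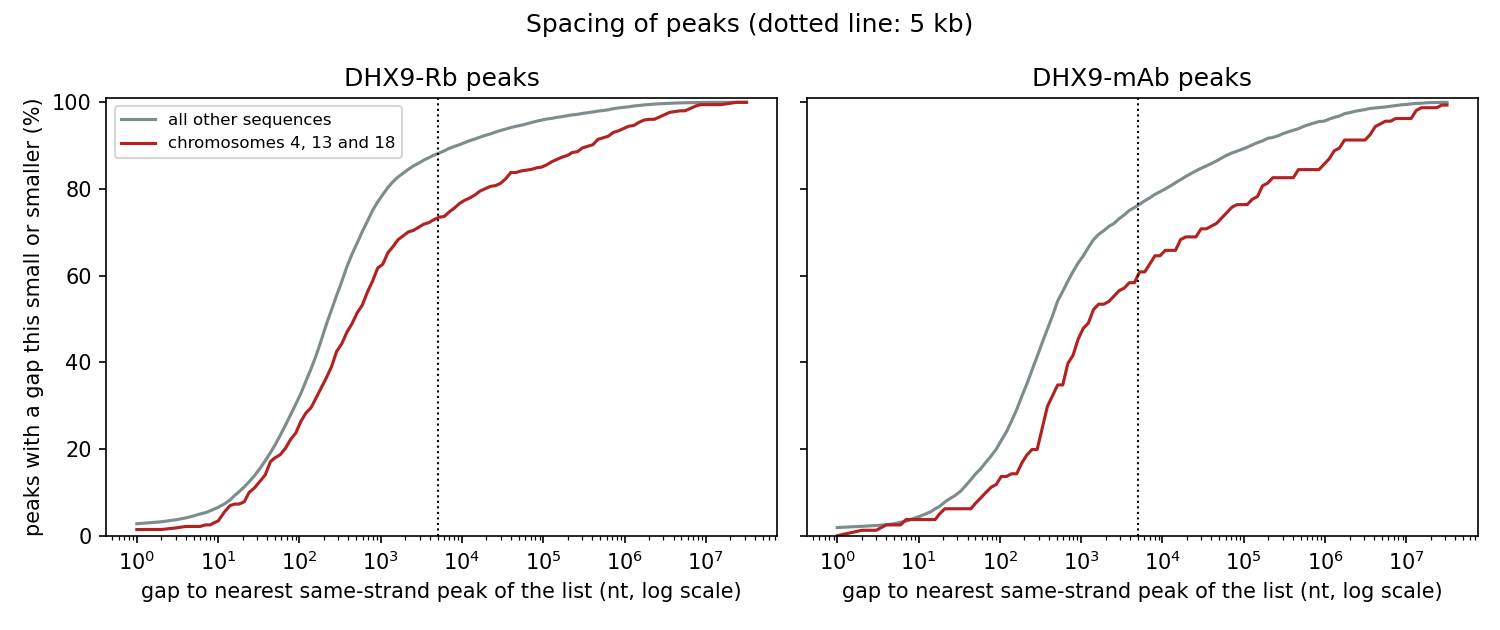
Share of peaks (vertical axis, %) whose gap to the nearest same-strand peak of the same list is at most the value on the horizontal axis (nt, log scale), for each antibody, on chromosomes 4, 13 and 18 and on all other sequences; the dotted line marks 5 kb. At 5 kb the curves for DHX9-Rb stand at 73.3% and 88.2%.

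A lone site marked by both antibodies is the simplest kind of peak in these lists, and 21 such pairs were found, 11 on chromosome 4 and 5 each on chromosomes 13 and 18. In each pair a lone DHX9-Rb peak overlapped a lone DHX9-mAb peak, by 51 to 243 nt with a median of 117 nt. The 10 with the widest DHX9-Rb peak were fixed as examples. On the plus strand of chromosome 4, the DHX9-Rb peak from 139938909 to 139939204 held the whole DHX9-mAb peak from 139938909 to 139939043, and both begin on the same base. A second pair lay 29275 nt further along, where DHX9-mAb, from 139968458 to 139968740, was the wider and held the whole DHX9-Rb peak from 139968480 to 139968722. On the plus strand of chromosome 18, DHX9-Rb from 29702038 to 29702274 and DHX9-mAb from 29701996 to 29702185 shared 148 nt, and the next DHX9-Rb peak of that strand was 8183619 nt away. On the minus strand of chromosome 13, DHX9-Rb from 36898649 to 36898860 held the whole DHX9-mAb peak from 36898729 to 36898848. The widest of the set was a looser match: on the minus strand of chromosome 13, DHX9-Rb from 33089108 to 33089562 and DHX9-mAb from 33089512 to 33089763 shared 51 nt, or 20.2% of the DHX9-mAb peak. The DHX9-mAb peak lay inside the DHX9-Rb peak in 7 of the 21 pairs, and the reverse held in 5. Such pairs were not counted in the rest of the genome. The share of lone DHX9-Rb peaks overlapped by any DHX9-mAb peak was 15.3% here and 15.1% in the rest.

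Dense runs, of 5 or more peaks, were few. There were 29 DHX9-Rb runs of this kind with 247 peaks, or 44.0% of the DHX9-Rb peaks here, beside 64.8% of the whole list. Chromosome 4 had 17 of them, chromosome 13 had 7 and chromosome 18 had 5. Their lengths ran from 1083 to 24483 nt with a median of 4975 nt, against 6326.5 nt for the 1180 dense runs of the rest. The median number of peaks in them was 6 here and 8 in the rest. Of the 29 runs, 5 reached 10 peaks. DHX9-mAb had 2 dense runs, both on chromosome 4, with 12 and 8 peaks, or 12.4% of its peaks here beside 44.5% of its whole list.

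The longest run lay on the plus strand of chromosome 4 from 1876578 to 1901060. Its 50 DHX9-Rb peaks covered 48.6% of its length, with a median gap of 140 nt, and it ranked 12th by peak number among the 5723 DHX9-Rb runs of all sizes in the whole list. DHX9-mAb marked only its middle. The 12 DHX9-mAb peaks, a run of their own, began 8394 nt from the 5′ end and ended at 17196 nt. Before them lay 13 DHX9-Rb peaks and after them 16, none overlapped, and of the 21 between them 13 were overlapped. This run also held the widest DHX9-Rb peak of chromosome 4, 697 nt from 1886671 to 1887367. A smaller run of 6 DHX9-Rb and 2 DHX9-mAb peaks followed on the same strand from 1935392 to 1939426.

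The other runs with at least 10 peaks differed in what DHX9-mAb marked. On the plus strand of chromosome 4 from 20280930 to 20288873, 13 DHX9-Rb peaks faced 8 DHX9-mAb peaks. Both antibodies marked its ends: DHX9-Rb had 9 peaks up to 20284266 and 4 from 20287168 on, and DHX9-mAb had 3 and 5. On the minus strand of the same chromosome from 39891903 to 39899429, 15 DHX9-Rb peaks stood beside 4 DHX9-mAb peaks, all 4 of which overlapped one of them. From 2541152 to 2548201 on the plus strand, 10 DHX9-Rb peaks stood beside 2 DHX9-mAb peaks, and 1 of the 10 was overlapped, by 29 nt. The run of chromosome 18 on the plus strand from 19195661 to 19201981 held 11 DHX9-Rb peaks, and DHX9-mAb was not called anywhere within it. Elsewhere in the genome 7 of 428 DHX9-Rb runs of at least 11 peaks were likewise without DHX9-mAb.

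The smaller dense runs of chromosomes 13 and 18 held 5 to 8 peaks each. On the plus strand of chromosome 13 from 45604757 to 45607757, 8 DHX9-Rb peaks covered 61.6% of 3001 nt, and both DHX9-mAb peaks overlapped the widest of them, 527 nt from 45605429 to 45605955. On the minus strand of chromosome 18, runs of 8 DHX9-Rb peaks each lay from 695945 to 699387 and from 705349 to 710235, with 2 and 3 DHX9-mAb peaks. On the plus strand of chromosome 13 from 53031245 to 53035087, 7 DHX9-Rb peaks met 4 DHX9-mAb peaks. On the minus strand of chromosome 4 from 110181278 to 110183520, 5 of 6 DHX9-Rb peaks were overlapped, the largest share among the 20 dense runs with the most peaks. By contrast, in the run of chromosome 13 from 33071088 to 33077088 none of 7 DHX9-Rb peaks was overlapped, and the single DHX9-mAb peak within its bounds lay 20 nt from the nearest of them.

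**Figure D2:**
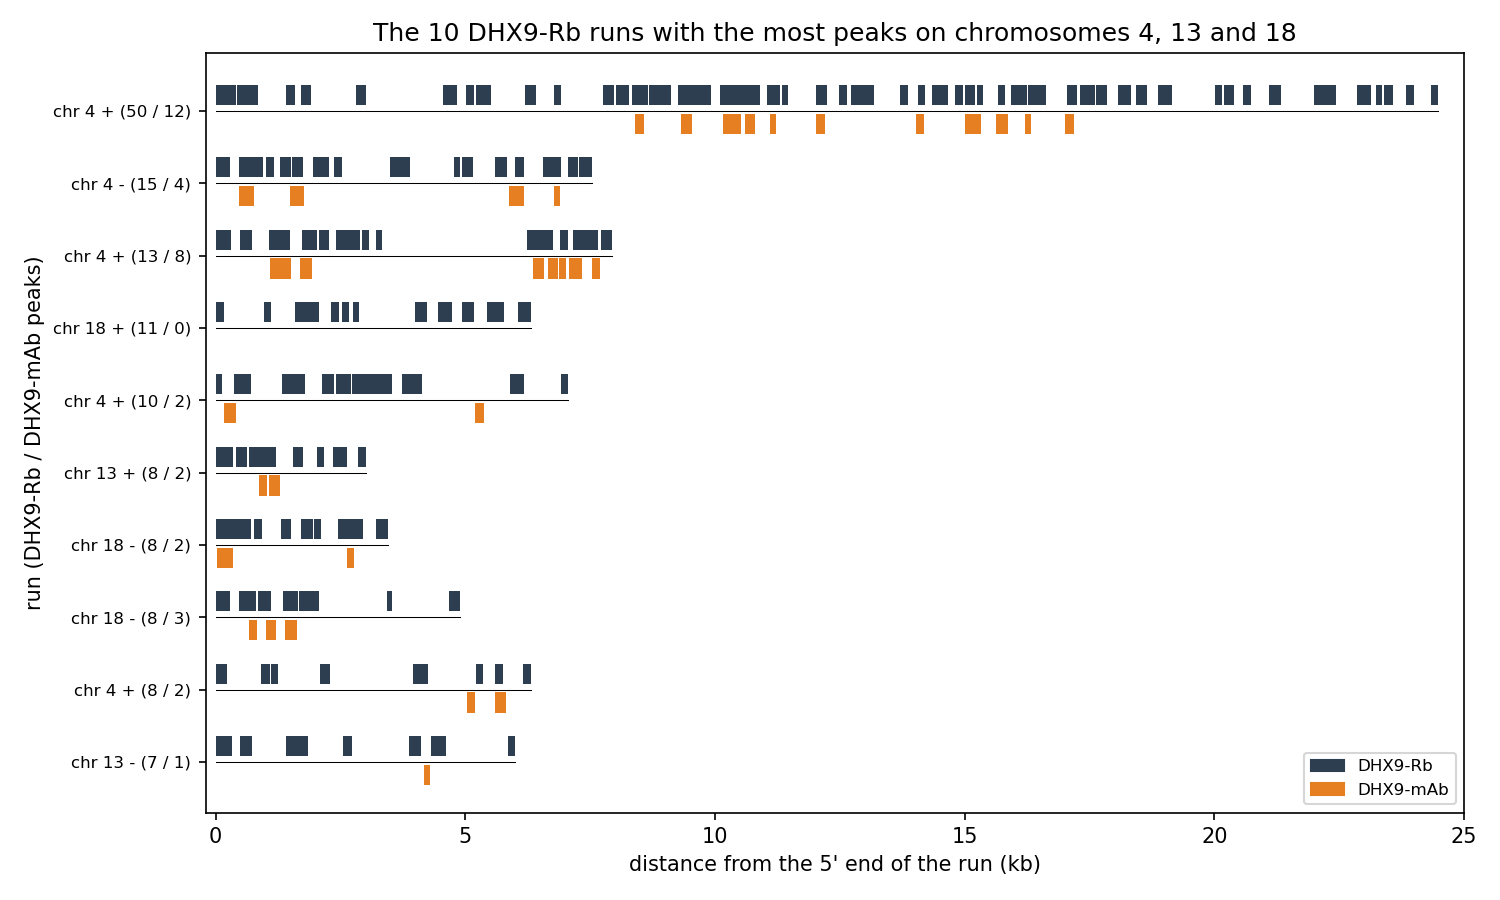
The 10 DHX9-Rb runs with the most peaks on chromosomes 4, 13 and 18, each drawn from its 5′ end (horizontal axis, kb), with DHX9-Rb peaks above the line and DHX9-mAb peaks below it; the numbers in brackets count DHX9-Rb and DHX9-mAb peaks. In the top run the 12 DHX9-mAb peaks sit in the middle, and the run of chromosome 18 with 11 DHX9-Rb peaks has none.

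A smaller part of the peaks here than elsewhere was found by both antibodies, where an overlap of at least 1 nt on the same strand counted. Overlapped by DHX9-mAb were 129 of the 562 DHX9-Rb peaks, or 23.0% (Wilson interval 19.7 to 26.6), beside 28.6% of the whole list and 28.7% of the rest. The difference passed the test (Fisher's exact test, odds ratio 0.74, 95% interval 0.601 to 0.905, adjusted p = 0.00738). Overlapped by DHX9-Rb were 130 of the 161 DHX9-mAb peaks, or 80.7% (74.0 to 86.1), beside 88.0% of the whole list and 88.2% of the rest (Fisher's exact test, odds ratio 0.563, 95% interval 0.375 to 0.868, adjusted p = 0.0124). Both calls rested in part on chromosome 13. Without it the shares were 24.4% and 81.6%, and by Fisher's exact test neither the DHX9-Rb difference (adjusted p = 0.0752) nor the DHX9-mAb one (adjusted p = 0.0581) passed. With the gene-rich chromosomes 17, 19 and 22 left out of the rest, the DHX9-mAb difference did not pass either (87.1% in the rest, Fisher's exact test, adjusted p = 0.0511).

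The overlapped shares of the 3 chromosomes ranked differently, with no test between them. On chromosome 13, 18 of 107 DHX9-Rb peaks were overlapped (16.8%), and on chromosome 18, 23 of 113 (20.4%), the 2 lowest shares of the 23 chromosomes. On chromosome 4, 88 of 342 were overlapped (25.7%), the 12th lowest and so in the middle. The other 20 chromosomes ran from 22.3% on chromosome 7 to 36.3% on chromosome 21. In the DHX9-mAb list the shares were 76.0% on chromosome 13 (19 of 25), 77.4% on chromosome 18 (24 of 31) and 82.9% on chromosome 4 (87 of 105). The other chromosomes there ran from 79.9% on chromosome 6 to 94.8% on chromosome 21. The Wilson intervals of the 3 chromosomes overlapped one another in both lists (10.9 to 25.0% on chromosome 13, 14.0 to 28.7% on chromosome 18 and 21.4 to 30.6% on chromosome 4 for DHX9-Rb).

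**Figure D3:**
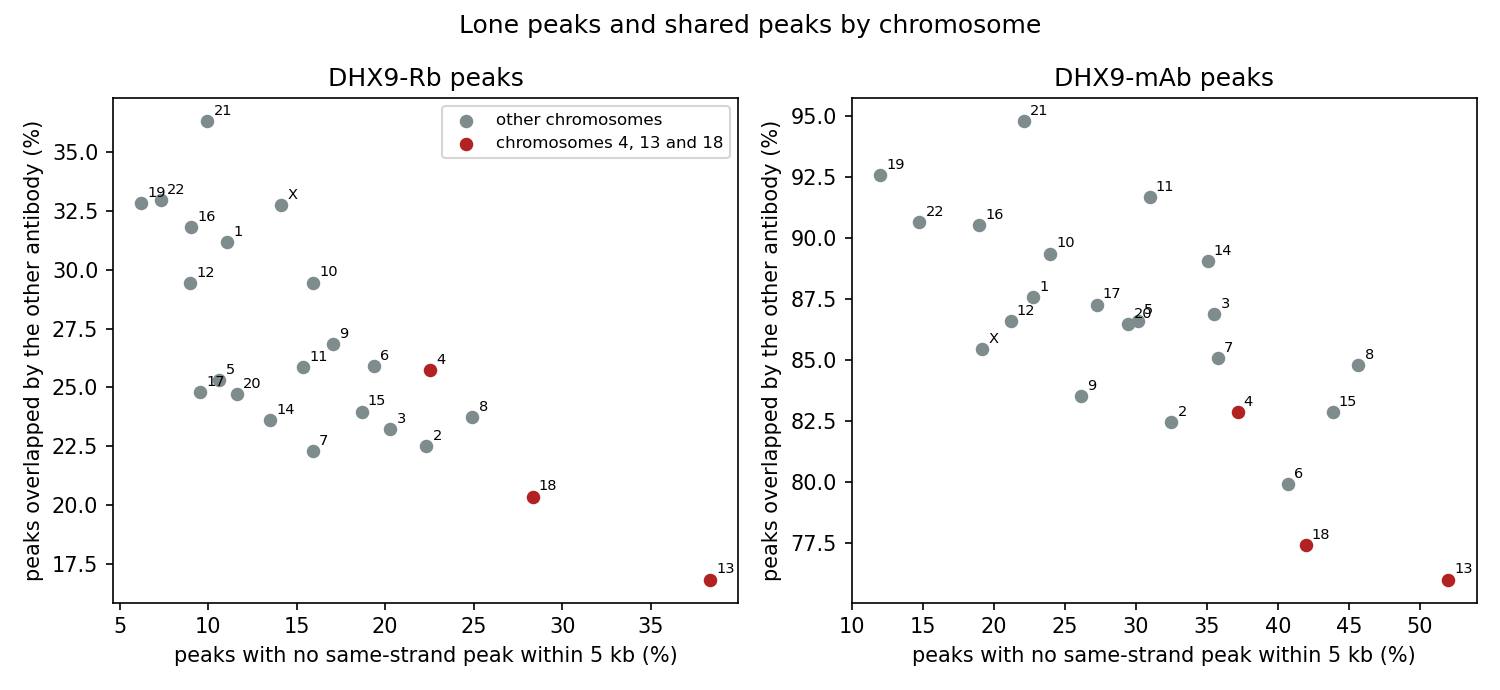
Share of peaks overlapped by the other antibody (vertical axis, %) against the share of lone peaks (horizontal axis, %) for 23 chromosomes in each list, each point 1 chromosome. Chromosomes 13 and 18 sit at the lower right in both panels, and chromosome 4 lies among other chromosomes.

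In the whole DHX9-Rb list the overlapped share was 15.1% for lone peaks, 21.9% in runs of 2 to 4 and 33.5% in dense runs, so the shares were also compared between peaks of like runs. Among lone DHX9-Rb peaks 23 of 150 here were overlapped (15.3%), beside 15.1% of all lone DHX9-Rb peaks. The rest also stood at 15.1%, and the difference did not pass (Fisher's exact test, odds ratio 1.02, 95% interval 0.615 to 1.62, adjusted p = 0.907). In runs of 2 to 4 peaks 49 of 165 were overlapped (29.7%, 23.3 to 37.1), beside 21.9% of all such peaks and 21.7% of the rest (Fisher's exact test, odds ratio 1.53, 95% interval 1.06 to 2.17, adjusted p = 0.0271). That call was lost in other settings: without chromosome 4 the share was 22.7% (15 of 66; Fisher's exact test, adjusted p = 0.88), and with each run counted once it was 47.7% of 65 runs here against 42.9% in the rest (Fisher's exact test, adjusted p = 0.581).

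In dense runs the share here was the lower one. There 57 of 247 DHX9-Rb peaks were overlapped (23.1%, Wilson interval 18.3 to 28.7), beside 33.5% of all peaks in such runs and 33.6% of the rest (Fisher's exact test, odds ratio 0.592, 95% interval 0.431 to 0.801, adjusted p = 0.00126). The share was 25.9% on chromosome 4, 16.3% on chromosome 13 and 18.4% on chromosome 18. Without the run of 50 peaks on chromosome 4 the difference still passed. Counted by run, 20 of 29 dense runs here held an overlapped peak (69.0%) against 84.7% in the rest, which did not pass (Fisher's exact test, adjusted p = 0.0627). The dense runs here had fewer peaks than those elsewhere, and the part of this in the difference was not tested. Here the share of the dense runs (23.1%) lay below that of the short ones (29.7%), against 33.6% and 21.7% in the rest, and this difference in order was not itself tested.

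For DHX9-mAb the same classes gave no difference that passed. Overlapped were 41 of 65 lone DHX9-mAb peaks here (63.1%), beside 74.8% of all lone ones and 75.3% of the rest (Fisher's exact test, odds ratio 0.562, 95% interval 0.327 to 0.985, adjusted p = 0.0578). In runs of 2 to 4 peaks 69 of 76 were overlapped (90.8%), beside 88.8% in all (Fisher's exact test, odds ratio 1.25, 95% interval 0.565 to 3.26, adjusted p = 0.771). All 20 peaks of the 2 dense runs were overlapped, beside 94.6% in all (Fisher's exact test, adjusted p = 0.736). A peak overlapped by DHX9-Rb was found in all 33 DHX9-mAb runs of at least 2 peaks here and in 1111 of 1120 such runs elsewhere. Lone peaks made up 24 of the 31 unmatched DHX9-mAb peaks here and 392 of 789 elsewhere, a difference that was not tested. Of all DHX9-mAb peaks, 40.4% were alone here and 23.8% elsewhere.

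**Figure D4:**
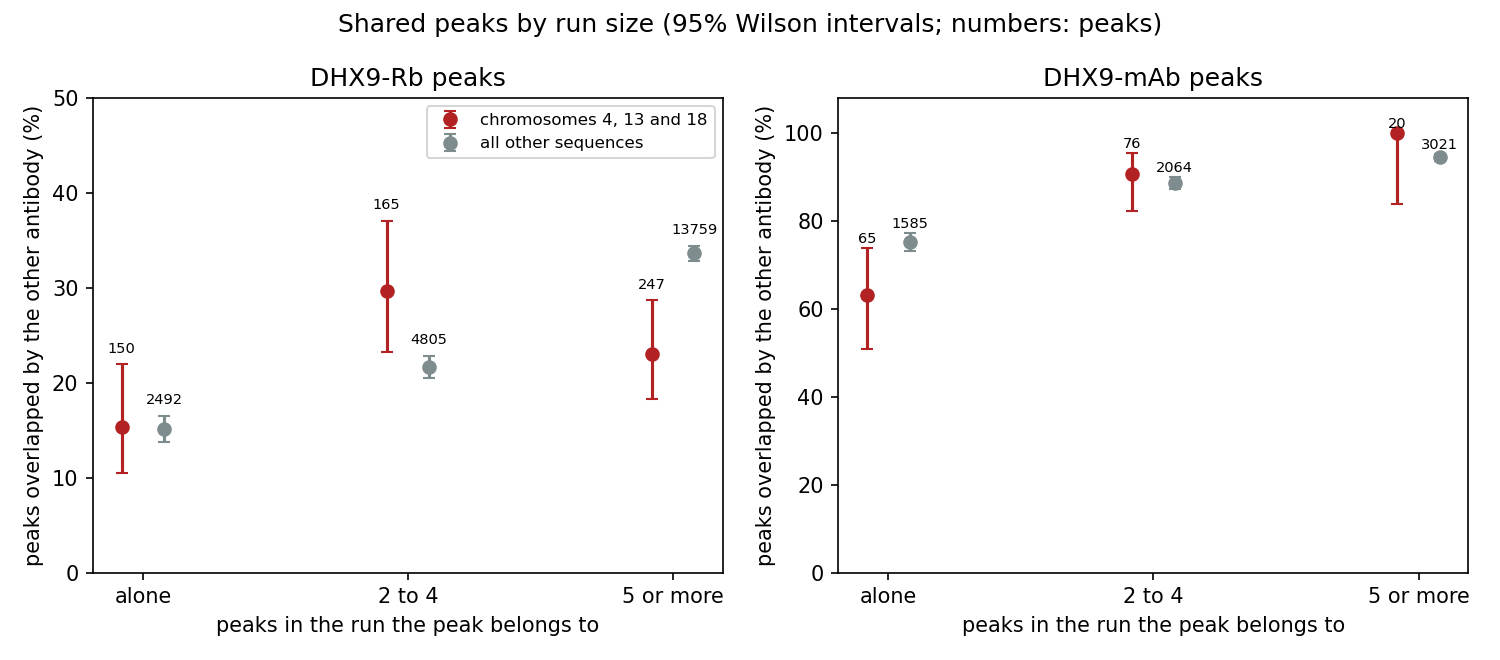
Share of peaks overlapped by the other antibody (vertical axis, %) by the number of peaks in the run (horizontal axis), on chromosomes 4, 13 and 18 and on all other sequences, with 95% Wilson intervals; the numbers above the points count peaks. For DHX9-Rb the values lie together for lone peaks. They are higher here in runs of 2 to 4 (29.7% and 21.7%) and lower here in runs of 5 or more (23.1% and 33.6%).

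The antibodies were also compared by place. Peaks of both lists chained at 5 kb gave 258 loci here, of which 83 held peaks of both antibodies (32.2%), 161 only of DHX9-Rb (62.4%) and 14 only of DHX9-mAb (5.43%). Of 5660 loci elsewhere, 41.3% held both. These shares were not tested. A locus of a single peak cannot hold both antibodies, and such loci made up 53.5% of the loci here and 39.3% elsewhere. The part of this in the lower share of loci with both was not tested. On chromosome 13 both antibodies met at 14 of 62 loci, on chromosome 18 at 17 of 58 and on chromosome 4 at 52 of 138.

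The 31 DHX9-mAb peaks without a DHX9-Rb partner fell into near misses and remote sites. A same-strand DHX9-Rb peak lay within 1 kb of 16 of them, and 14 lay more than 5 kb from any. Of 789 such peaks elsewhere 64.0% lay within 1 kb, against 51.6% here, a difference that was not tested. Some near misses lay within dense runs and others did not. Within dense runs of chromosome 4, the minus-strand DHX9-mAb peak from 39831878 to 39832329, 452 nt wide, lay 14 nt from a DHX9-Rb peak. The plus-strand one from 39745470 to 39745621 lay 25 nt from a DHX9-Rb peak. Outside the dense runs, the minus-strand DHX9-mAb peak of chromosome 4 from 458890 to 459022 lay 3 nt from a DHX9-Rb peak of a run of 4. The widest DHX9-mAb peak of all 3 chromosomes was also unmatched, 475 nt on the minus strand of chromosome 4 from 39873807 to 39874281, with the nearest DHX9-Rb peak 5481 nt away. More remote was the plus-strand peak of chromosome 4 from 57786840 to 57787005, at 86613 nt. The most remote, named after its value was seen, lay on the plus strand of chromosome 18 from 33746424 to 33746670, 4044149 nt from the nearest DHX9-Rb peak of its strand.

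Where both antibodies marked a site, the DHX9-Rb peak typically covered most of the length of the DHX9-mAb peak, though fewer lay wholly inside it. Each of the 130 overlapped DHX9-mAb peaks was paired with the DHX9-Rb peak that covered most of it. The overlap had a median of 136.5 nt (interquartile range 105.25 to 186.75), against 159 nt in the rest, and took a median of 93.9% of the DHX9-mAb peak, against 91.3%. The midpoints lay within 50 nt of each other in 89 pairs (68.5%), against 61.1% in the rest. The DHX9-mAb peak was the narrower in 94 pairs (72.3%) and lay wholly inside the DHX9-Rb peak in 46 (35.4%, against 36.1%). Its 5′ end lay a median of 2 nt inside the DHX9-Rb peak and its 3′ end 23.5 nt inside, and the corresponding values of the rest were 9 and 17 nt. These values were not tested.

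Peaks were narrower on these chromosomes. The median width was 187 nt for DHX9-Rb (interquartile range 143 to 240), against 201 nt in the rest (152 to 273). For DHX9-mAb it was 170 nt (129 to 222), against 191 nt (146.25 to 258). Wider than the median of the rest were 237 of 562 DHX9-Rb peaks (42.2%), beside 49.7% of the whole list (Fisher's exact test against the rest, odds ratio 0.731, 95% interval 0.614 to 0.869, adjusted p = 0.0012). The same held for 63 of 161 DHX9-mAb peaks (39.1%), beside 49.7% of the whole list (Fisher's exact test, odds ratio 0.644, 95% interval 0.46 to 0.896, adjusted p = 0.0124). The DHX9-mAb difference did not pass without chromosome 4 (22 of 56 peaks, Fisher's exact test, adjusted p = 0.209) or with chromosomes 17, 19 and 22 left out of the rest (Fisher's exact test, adjusted p = 0.056).

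Width was also set beside run size and overlap, with no test. Lone DHX9-Rb peaks had a median of 163.5 nt here and 166 nt in the rest, and peaks of dense runs 211 nt and 216 nt. In DHX9-Rb runs of 2 to 4 peaks it was 188 nt here and 186 nt in the rest. Lone DHX9-mAb peaks stood further apart, at 140 nt here and 167 nt in the rest. DHX9-mAb peaks in runs of 2 to 4 had 188.5 and 186 nt, and the 20 in dense runs here 185.5 nt against 213 nt. Overlapped DHX9-Rb peaks had a median of 211 nt here against 179 nt for the others, and in the rest 244 nt against 190 nt. In the DHX9-mAb list the overlapped and the other peaks here were close, at 171.5 and 170 nt, whereas in the rest they stood at 196 and 164 nt. By chromosome, the DHX9-Rb medians were 187, 187 and 179 nt on chromosomes 4, 13 and 18, and the DHX9-mAb medians 170, 185 and 150 nt. Chromosome 18 had the lowest median of the 23 chromosomes in both lists. The other 20 chromosomes ran from 181 nt on chromosome 8 to 220 nt on chromosome 19 with DHX9-Rb. With DHX9-mAb they ran from 165 nt on chromosome 2 to 210 nt on chromosome 19. Chromosomes 4 and 13 lay within both ranges.

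No overlap between strands was found on these chromosomes. None of the 562 DHX9-Rb peaks met an opposite-strand peak of its list, which allows a share of up to 0.534%, and none of the 161 DHX9-mAb peaks did, which allows up to 1.86%. Elsewhere, with the mitochondrial chromosome left out, 0.533% of DHX9-Rb peaks did so. That share lies at the approximate limit, so 0 of 562 does not settle whether the share here is lower. For DHX9-mAb it was 13 of 6620 (0.196%), below what 0 of 161 allows. Within 5 kb, 2 DHX9-Rb peaks here (0.356%) and none of the DHX9-mAb peaks had a neighbour on the opposite strand, against 2.09% and 0.952% elsewhere. For DHX9-mAb 0 of 161 again allows up to 1.86%, above the share elsewhere, and neither difference was tested. On the plus strand lay 315 of 562 DHX9-Rb peaks (56.0%) and 89 of 161 DHX9-mAb peaks (55.3%), against 52.2% and 52.1% in the rest.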

How the data were processed

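Per the labels' protocols, HEK293 cells were cross-linked with ultraviolet light, DHX9 was captured on antibody beads, RNA was trimmed with RNase I, barcoded adapters were ligated, and material from control and DHX9 pull-downs was pooled ahead of reverse transcription. Random bases in the adapters served to merge PCR duplicates. Bowtie2 2.2.6 and hg19 are named in the submitters' processing notes, and the files' second column names PEAKachu. Its control, threshold and settings, and the treatment of reads that map to many places, each of which could change which peaks were called, were not given in the sources used here. The deposited values are positions of peak regions, counted from 1, with an empty score column, so no read depth, height or fold is known.

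Peaks were selected by chromosome. Overlap (at least 1 nt, same strand), runs (gaps of at most 5 kb), widths and 1 Mb blocks (by midpoint) were computed with pandas 2.3.3, SciPy 1.17.1 and NumPy 2.4.6 in Python 3.11.15, and drawn with matplotlib 3.10.9. Differences in shares were tested by Fisher's exact test (two-sided, 13 in all) with Benjamini-Hochberg adjustment at 0.05, and given 95% Wilson intervals. The counting of overlapped and lone DHX9-Rb peaks, and no other measure, was tested on simulated plus-strand peaks. Named regions are dense DHX9-Rb runs (the 20 with the most peaks), DHX9-mAb peaks without a partner (the first 15 in genome order), lone pairs (the 10 with the widest DHX9-Rb peak), and the widest peaks and longest gaps. The chromosomes, measures and named kinds of region were chosen with earlier results of these data known. Alternatives covered the overlap, joining distance, merging within 50 nt, the sequences included, the width threshold, counting by run for the overlapped share and, added after the data were seen, counting by run within run sizes and leaving out the longest run. The gene annotation at hand is on GRCh38, so it was left aside, and positions stay as deposited. IgG-Rb samples were not analysed here.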

Additional observations from a re-analysis of the deposited data

How the results depend on the processing

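Values are the share on chromosomes 4, 13 and 18 minus that of the rest, in percentage points. Of 132 alternative values, 109 kept the direction and the side of the threshold, 13 lost the call, 1 gained it and 9 turned, all 9 in differences that had not passed. The lone shares of both lists and the DHX9-Rb widths held under every alternative run. Without chromosome 13 the overlapped share differed by -4.32 (DHX9-Rb) and -6.55 (DHX9-mAb), and without chromosomes 17, 19 and 22 in the rest by -6.36 (DHX9-mAb), none passing. The DHX9-mAb width difference was -10.7 without chromosome 4 and -8.89 without chromosomes 17, 19 and 22 in the rest. For DHX9-Rb runs of 2 to 4 peaks (8.03) it no longer passed with an overlap of 50 nt (7.19), joining at 1 kb (4.1) or 20 kb (6.59), merging within 50 nt (5.84), the rest without chromosomes 17, 19 and 22 (6.7), without chromosome 4 (1.06) or by run (4.8), and for dense DHX9-Rb runs (-10.6) it no longer passed by run (-15.8). Lone DHX9-mAb peaks passed after merging (-12.1). For lone DHX9-Rb peaks (0.245) the sign turned with 50% of the peak covered (-0.431), joining at 20 kb (-0.302), merging (-0.234), the rest without chromosomes 17, 19 and 22 (-0.621) and without chromosome 18 (-1.53). For DHX9-mAb it turned in runs of 2 to 4 peaks with 50% covered (-3.53), 50 nt (-3.84) and joining at 20 kb (-0.986), and in dense runs at 20 kb (-1.67). Dense DHX9-mAb runs gave no value without chromosome 4, since both lie there. No paired analysis was possible because each list pools its 2 replicates, and for the same reason no replicate could be left out. Without read depth, a peak missing from a list cannot be told from one below its threshold.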
